A study of Rattus norvegicus with 12 samples.

Results

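The lungs of 3 vehicle-treated rats out of the 12 rats sequenced were described: the libraries Veh_923, Veh_924 and Veh_963. They were chosen by their labels, which name PBS as the treatment, and by no measured value. All 12 animals were rats of the monocrotaline (MCT) model, and the other 9 received a drug and were not used. MCT was given as a single subcutaneous injection of 60 mg/kg, the labels give an age of 9 weeks, and PBS was delivered from an osmotic minipump placed under the skin. No time after MCT is stated for the sequenced lungs. For histology and hemodynamics in the same study the pumps were implanted 1 week after MCT and left for 2 weeks. No rat without MCT was among the libraries, so a level given here is the level in MCT lung with vehicle, and its part due to MCT cannot be told apart from that of healthy lung. RNA came from a piece of about 10 mg of lung per rat.

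Monocrotaline is a plant alkaloid that the liver converts to a reactive pyrrole, which injures the endothelium of the lung. Over the following weeks the pulmonary arteries of the rat thicken, inflammatory cells enter the lung and the right ventricle hypertrophies, and the model is used for pulmonary arterial hypertension. Whole lung RNA is a mixture. Alveolar type 1 cells form the gas exchange surface, alveolar type 2 cells make surfactant, club and ciliated cells line the airways, and endothelium, smooth muscle, fibroblasts and resident and blood-borne leukocytes make up most of the rest. In such bulk samples, fewer cells of a type and less RNA per cell cannot be told apart.

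The 3 libraries held 19956068 (Veh_923), 19282394 (Veh_924) and 20084042 (Veh_963) reads in 19687 listed genes. Levels are given as FPKM (fragments scaled to gene length and library size), which allows genes to be compared with each other. Differences between rats were taken on log2 CPM (reads scaled to library size, with TMM factors between libraries). Veh_963 stood apart from the other 2 libraries. Across 12944 genes with a mean of at least 50 reads, Pearson's r of log2 CPM was 0.969 between Veh_923 and Veh_924, 0.952 between Veh_923 and Veh_963, and 0.942 between Veh_924 and Veh_963. These are correlations across genes, which are not independent replicates. With 1 group of 3 animals there was nothing to test, so no p-value is given and each value is shown for each rat.

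The promoter sequences of 5 genes of airway and alveolar epithelium are shown here because these genes were among the most abundant or the most variable transcripts of the lungs, and they include both promoters with and promoters without the motif marked. They are the 250 bases upstream of the gene start in RefSeq (build GRCr8). Capitals mark CTCAAG or its reverse complement CTTGAG, the core of the site bound by NKX2-1, a transcription factor of lung epithelium.
Scgb1a1, chr1:215409687-215409936, minus strand: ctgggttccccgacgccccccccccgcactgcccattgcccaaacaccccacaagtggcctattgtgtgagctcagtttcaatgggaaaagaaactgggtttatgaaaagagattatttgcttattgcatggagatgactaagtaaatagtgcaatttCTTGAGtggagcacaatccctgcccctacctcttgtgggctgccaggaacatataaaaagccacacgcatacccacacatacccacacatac
Sftpb, chr4:105917338-105917587, plus strand: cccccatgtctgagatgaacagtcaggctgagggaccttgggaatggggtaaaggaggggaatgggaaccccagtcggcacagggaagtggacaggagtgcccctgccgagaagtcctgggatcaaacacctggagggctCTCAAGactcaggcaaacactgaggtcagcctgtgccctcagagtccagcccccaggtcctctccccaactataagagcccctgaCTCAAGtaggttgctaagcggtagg
Scgb3a1, chr10:34468916-34469165, plus strand: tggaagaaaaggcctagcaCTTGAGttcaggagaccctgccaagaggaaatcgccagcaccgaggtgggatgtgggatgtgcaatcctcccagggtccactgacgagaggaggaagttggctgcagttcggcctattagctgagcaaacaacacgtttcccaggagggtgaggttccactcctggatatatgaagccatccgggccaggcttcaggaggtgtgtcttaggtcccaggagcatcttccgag
Sftpa1, chr16:17042014-17042263, plus strand: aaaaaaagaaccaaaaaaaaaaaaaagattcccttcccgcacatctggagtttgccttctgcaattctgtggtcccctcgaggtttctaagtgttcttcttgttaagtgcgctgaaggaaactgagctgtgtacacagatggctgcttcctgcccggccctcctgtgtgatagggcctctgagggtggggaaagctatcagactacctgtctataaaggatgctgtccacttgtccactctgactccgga
Cyp2f4, chr1:91543518-91543767, plus strand: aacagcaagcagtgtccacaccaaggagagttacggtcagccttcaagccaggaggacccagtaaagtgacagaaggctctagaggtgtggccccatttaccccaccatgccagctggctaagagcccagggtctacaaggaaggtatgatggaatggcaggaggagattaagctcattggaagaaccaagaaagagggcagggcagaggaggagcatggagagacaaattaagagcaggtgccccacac
Scgb1a1 held 1 such match, which began 92 bases upstream of the start. Sftpb held 2, at 110 and 25 bases upstream, and Scgb3a1 held 1, at 231 bases upstream. Sftpa1 and Cyp2f4 held 0. In the same table, 13.3% of all 33469 promoters had CTCAAG on either strand. It was present in 4 of the 8 promoters available for the club and secretory list and in 1 of the 9 available for the alveolar type 2 list. Of the erythroid list 3 of 13 held it, and of the smooth muscle list 1 of 9. Another 3 motifs were searched. TATAAA, read on the strand of the gene, was present in 8.06% of all promoters and in 4 of the 8 club and secretory ones. It was present in 2 of 9 alveolar type 2, 3 of 13 erythroid and 0 of 9 smooth muscle promoters. GATAAG, the core of the GATA site, was present on either strand in 6.18% of all promoters and in 6 of 13 promoters of the erythroid list. It was in 0 promoters of the smooth muscle, alveolar type 2 and club and secretory lists. The CArG box, bound by serum response factor, was present in 1.5% of all promoters and in 0 of 9 of the smooth muscle list. It was in 1 of 8 club and secretory promoters and in 0 of the alveolar type 2 and erythroid ones. A match is a description of the letters in this window and no evidence of binding.

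A mean of at least 1 FPKM was reached by 13921 genes, 70.7% of those listed. At least 10 FPKM was reached by 7706 genes, at least 100 FPKM by 970 and at least 1000 FPKM by 68. The median listed gene had 5.63 FPKM. No read was counted in any of the 3 libraries for 1083 listed genes. Protein-coding genes took 99.3 to 99.4% of the reads of a library. Reads were spread widely: 13 genes together held 10% of them, 757 held 50% and 5908 held 90%, as means of the 3 rats. The number of genes that held 50% was 749 in Veh_923, 753 in Veh_924 and 734 in Veh_963.

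The most abundant transcript was Scgb1a1, the secretoglobin of club cells, at 14965 FPKM in Veh_923, 12498 in Veh_924 and 29879 in Veh_963, with a mean of 19114 ± 9404 (SD, n = 3). Veh_963 had the highest value, and its level was the single largest of any gene in any of the 3 libraries. Mt-co1, which encodes a core subunit of cytochrome c oxidase on the mitochondrial genome, had 14150, 17062 and 12558 FPKM in the same order. It held the most reads, 2.25% on average. A gene model named Lyc2, a lysozyme C gene expressed by macrophages and, in rodents, by alveolar type 2 cells, had 15107, 9668 and 13066 FPKM. These 3 genes overlapped in range, so their order differed from rat to rat: Scgb1a1 led in Veh_963, Mt-co1 in Veh_924 and Lyc2 in Veh_923.

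Sftpc, the surfactant protein gene that marks alveolar type 2 cells, was the fifth by mean level, with 13944, 5721 and 11506 FPKM. Sftpc lay on chromosome 15 at 55935061 to 55937997 and Scgb1a1 on chromosome 1 at 232216740 to 232220289 in the build of the files, whose name was not stated. The thymosin gene Tmsb4x, an actin-binding peptide of most cells, had 8461 ± 1130 FPKM (SD, n = 3) and Mgp, the matrix Gla protein that limits calcification, 4499 ± 673. Iron storage was prominent: the ferritin chains Fth1 and Ftl1 had 3654 ± 266 and 3642 ± 294 FPKM. Sparc, a collagen-binding matrix protein, had 2724 ± 225, and Cd74, the invariant chain of MHC class II, had 2698 ± 308. Of the 29 pairs of neighbours in the order of the 30 most abundant genes, 28 overlapped in range between rats, so that order is not fixed at n = 3. The exception was between Mt-co2 and Mt-cyb.

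**Figure D1:**
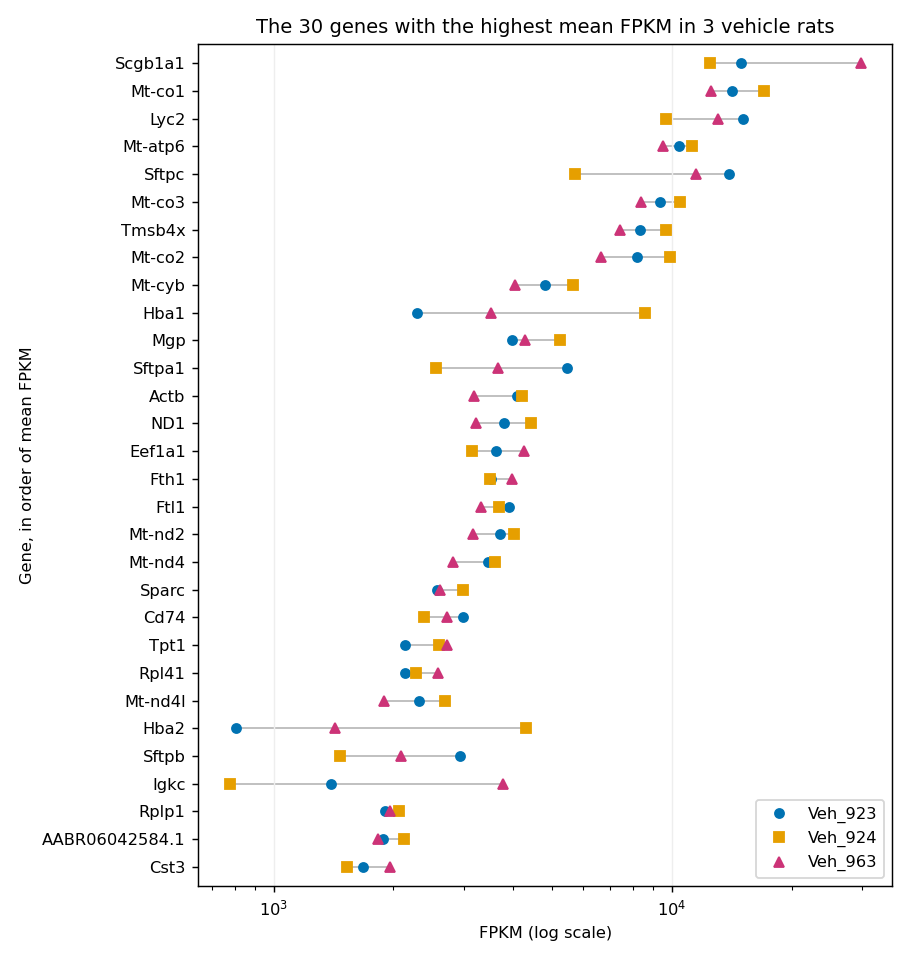
FPKM (log axis) of the 30 genes with the highest mean in the lungs of 3 vehicle rats, in order of the mean. Each symbol is 1 rat and the grey line joins the lowest to the highest. Scgb1a1 and Igkc were highest in Veh_963, Hba1 and Hba2 in Veh_924 and the surfactant genes Sftpc, Sftpa1 and Sftpb in Veh_923.

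By class, the mitochondrial genome provided 6.52, 7.55 and 5.65% of the reads in Veh_923, Veh_924 and Veh_963. Its 13 protein genes accounted for most of this, and 12 of them were highest in Veh_924, where 32.5% of all 12944 genes were. Cytosolic ribosomal protein genes, 76 of which were listed, took 3.45, 3.57 and 4.12% of reads. The 4 surfactant protein genes took 2.5, 1.16 and 1.88%, and the 3 secretoglobins 0.724, 0.602 and 1.42%. The summed share of the 21 collagen genes was even, at 1.7, 1.78 and 1.73%. Hemoglobin chains took 0.199, 0.832 and 0.328%. The 95% Wilson interval of each of these shares reached at most 0.012 percentage points to either side and covers counting error only. Since short transcripts weigh more per length, the mitochondrial genome made up 10.04 ± 1.51% (SD, n = 3) of summed FPKM, ribosomal proteins 8.74 ± 0.761%, secretoglobins 2.98 ± 1.39% and collagens 0.545 ± 0.0111%.

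Alveolar epithelium was represented by strongly expressed markers of both types. Of 12 type 2 markers and 12 type 1 markers, each was at 1 FPKM or more, with list medians of 244 and 270 FPKM. Such a median depends on which markers a list holds and is no cell proportion. Sftpa1, a collectin of surfactant, had 5443, 2557 and 3667 FPKM in Veh_923, Veh_924 and Veh_963. Sftpb, which encodes the surfactant protein needed for the film at the air surface, had 2931, 1467 and 2092 FPKM. Both were highest in Veh_923 and lowest in Veh_924. Abca3, which loads surfactant lipid into lamellar bodies, had 14.2, 4.83 and 13.8 FPKM and was chosen after its values were seen. Type 1 markers were more even: Ager, a receptor for glycated proteins, had 1296, 1162 and 1407 FPKM, and Hopx 792, 669 and 777. Aqp5, a water channel, had 350, 354 and 284 FPKM.

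Endothelial transcripts were abundant, with 15 of 16 general markers at 1 FPKM or more and a median of 99.1 FPKM. Cldn5, a tight junction protein, had 328, 435 and 601 FPKM in Veh_923, Veh_924 and Veh_963. Pecam1, an adhesion molecule of endothelial junctions, had 149, 201 and 188 FPKM. Robo4 was the exception at a mean of 0.187 FPKM. The 6 aerocyte capillary markers had a median of 68 FPKM, the 5 general capillary markers 52.9, the 8 arterial ones 26.2 and the 6 lymphatic ones 14.2. Ccl21, the chemokine of lymphatic endothelium, was the highest lymphatic marker at 1147, 1020 and 1254 FPKM, whereas Prox1, the transcription factor that defines it, had 0.825, 0.816 and 0.253.

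Among mesenchymal lists, 11 of 12 smooth muscle markers and all 15 fibroblast markers reached 1 FPKM, with medians of 90.4 and 81.9 FPKM. Both medians depended on Veh_963. By rat the smooth muscle median was 46.9, 66.1 and 158 FPKM and the fibroblast median 37.2, 38.8 and 111, and without Veh_963 they were 56.5 and 38 FPKM. Col3a1 and Col1a1, the chains of fibrillar collagens, had 1083 ± 14.6 and 459 ± 32.3 FPKM (SD, n = 3). The elastic fibre gene Eln had 811, 1022 and 1278 FPKM, and Fn1, fibronectin, 553, 510 and 379. The smooth muscle actin gene Acta2 was not analysed here. Mesothelial markers were lower, with a median of 8.21 FPKM, and the defining markers Calb2 and Bnc1 had 0.0236 and 0.0211 FPKM.

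Macrophage transcripts were the most abundant of the immune lists, with 18 of 18 markers at 1 FPKM or more and a median of 85.8 FPKM. C1qa and C1qb, subunits of the first complement component, had 288 ± 29.7 and 284 ± 31.4 FPKM (SD, n = 3), and Spp1, osteopontin, had 260 ± 28. Chia, an acidic chitinase, led the alveolar macrophage list at 597, 358 and 596 FPKM, but the median of that list was only 10.8 FPKM. Of its 10 members 8 reached 1 FPKM on average, and Car12 and Atp6v0d2 did not, at 0.617 and 0.424. Marco, chosen after its values were seen, reached it through Veh_924 only, at 0.268, 3.05 and 0.0592 FPKM. Mast cell proteases were also high: Tpsb2 (tryptase) had 183 ± 29.7, Cma1 (chymase) 175 ± 46.8 and Cpa3 (carboxypeptidase) 165 ± 16.8 FPKM, while Mcpt1 was listed with no read. The medians of the T cell, NK cell, neutrophil and B cell lists lay between 2.88 and 5.78 FPKM. Cd4, which rat macrophages express as well as T cells, had 55.6 ± 1.64 FPKM, and Cd3e, a chain of the T cell receptor complex, 12.3 ± 1.31.

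Among neutrophil markers, Lcn2, a siderophore-binding protein that epithelium also makes, had 2499, 1297 and 415 FPKM, S100a9 had 88.6, 215 and 97.9, and the granule genes Elane, Ctsg and Ltf were below 1 FPKM on average. All 5 eosinophil markers were below 1 FPKM, the highest being Prg2 at 0.553.

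Lists of tissues that could have been taken with the lung had low medians, with some members detected. Of the cardiac list, 6 of 15 members reached 1 FPKM, of the skeletal muscle list 5 of 12 and of the adipocyte list 5 of 9. The summed level of these lists was 37.9, 56.8 and 308.8 FPKM, 29.7, 35.8 and 45.9 FPKM, and 75.5, 48.6 and 120 FPKM in Veh_923, Veh_924 and Veh_963, so each was highest in Veh_963. Myh6 and Nppa, markers of heart muscle, and Nkx2-5, a cardiac transcription factor, had 0 reads in each library, which allows at most 0.149 to 0.156 CPM. Actc1, a sarcomeric actin, was the highest of the cardiac list at 19.9, 31.1 and 283 FPKM and made up most of the sum of that list in each rat. Of the adipocyte list, Cfd, complement factor D, had 56.8, 36.4 and 80.7 FPKM, while the defining genes Adipoq (adiponectin) and Plin1 (perilipin) had 0.215 FPKM and 0 reads. Of the hepatocyte list 2 of 9 members reached 1 FPKM, with a summed level of 7.9, 6.1 and 15.7 FPKM, while albumin (Alb) had 0 reads. Of the kidney tubule markers 0 of 5 reached 1 FPKM. Chondrocyte markers had a median of 0.0528 FPKM, yet 4 of 10 reached 1 FPKM, and the summed level was 3, 5.3 and 17.3 FPKM. Ucma, a cartilage protein, had 0, 0 and 65 reads and so was detected in Veh_963. Of 6 airway basal cell markers 2 reached 1 FPKM, Krt15 at 2.17, 0.625 and 3.93 FPKM and Aqp3 at 1.43, 1.07 and 1.06, while Krt5 and Tp63 had 0.196 and 0.114 FPKM on average.

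**Figure D2:**
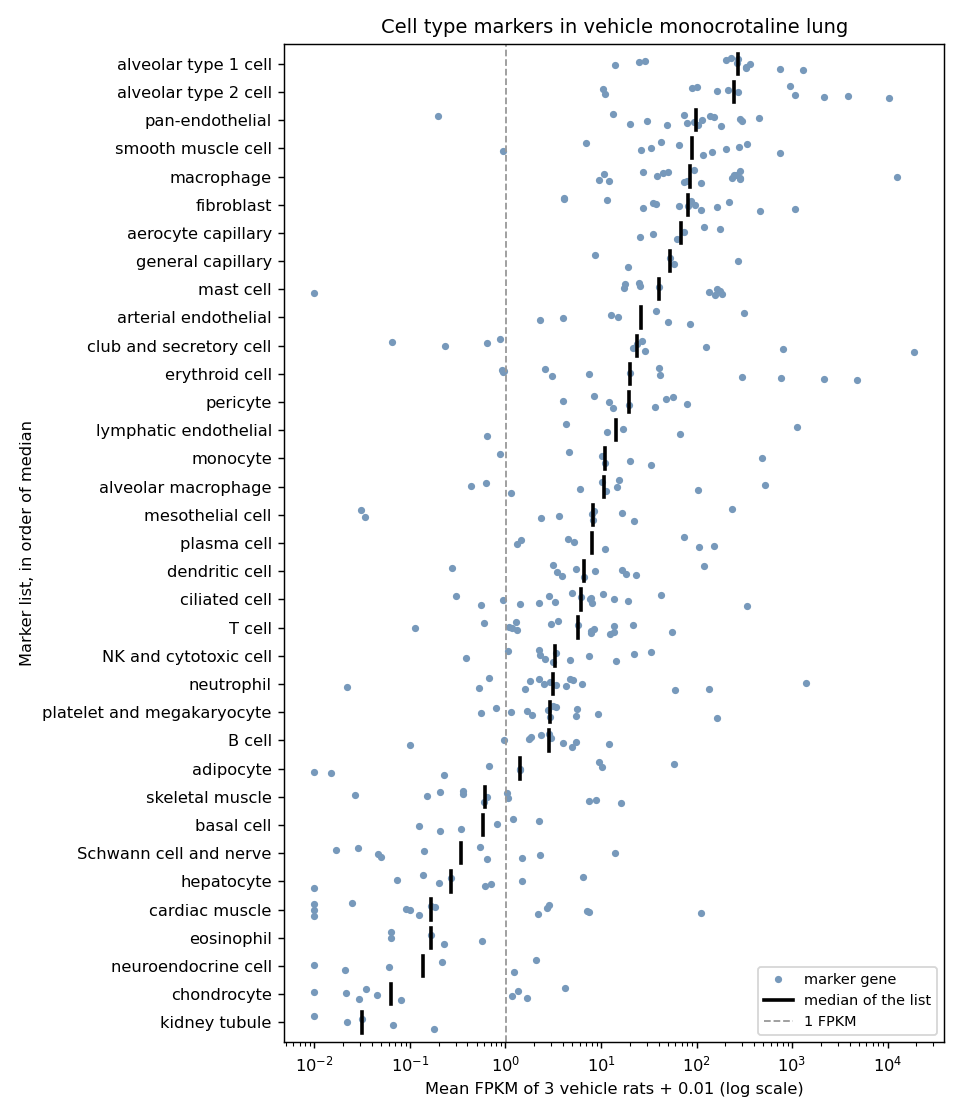
Mean FPKM of 3 vehicle rats plus 0.01 (log axis) of every listed marker gene in 35 cell type lists, with 1 point per gene, a black bar at the median of the list and a dashed line at 1 FPKM. The alveolar type 1 and type 2, general endothelial, smooth muscle, general macrophage and fibroblast lists had medians above 80 FPKM, and the heart, skeletal muscle, liver, kidney, cartilage, nerve, basal cell, eosinophil and neuroendocrine lists had medians below 1 FPKM.

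Housekeeping processes were expressed at high levels. The 13 mitochondrial protein genes had a median of 3630 FPKM, the 76 ribosomal protein genes 774, the 47 nuclear genes of the respiratory chain 92.2, the 16 glycolytic genes 85 and the 30 proteasome genes 83.7. Gapdh, a glycolytic enzyme often used as a reference gene, had 634, 468 and 406 FPKM. Antioxidant genes had a median of 214 FPKM, led by Prdx6 (a peroxiredoxin) at 703 ± 53.8 and Gpx1 (a glutathione peroxidase) at 687 ± 42.9 (SD, n = 3). Complement genes had a median of 122 FPKM and MHC class II genes 351. RT1-Da, a class II alpha chain, had 1063, 853 and 983 FPKM.

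Cell cycle genes were low but present. DNA replication genes had a median of 8.78 FPKM, and all 25 reached 1 FPKM; 28 of the 29 mitosis genes did so, with a median of 6.81. Cdk1, the mitotic kinase, had 23.4, 21.9 and 18.4 FPKM, and Pcna, the sliding clamp of DNA polymerase, 75.2, 65.6 and 62.6. Of the 25 replication genes, 23 were lowest in Veh_963, where 37.2% of all 12944 genes were lowest. Cdkn1a, the cell cycle inhibitor induced by p53, had 177, 209 and 147 FPKM, and the p53 target Phlda3 had 161, 202 and 122. All 17 p53 targets were at 1 FPKM or more, with a median of 30.5 FPKM.

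The receptor of angiotensin II in these lungs was Agtr1a, the type 1a receptor, with 31.1, 34.7 and 35.1 FPKM in Veh_923, Veh_924 and Veh_963. The other receptors were at the limit of detection: Agtr1b had 0, 0 and 11 reads, Agtr2 had 11, 4 and 6 reads, and Mas1, the receptor of angiotensin 1-7, had 0.409 FPKM on average. Agt, the precursor of the ligand, had 11.8, 5.31 and 7.93 FPKM and was highest in Veh_923 and lowest in Veh_924. Ace was not analysed here. The transducers of the receptor were all present. The G proteins Gnaq and Gna11 had 13.2 ± 2.63 and 18.2 ± 2.16 FPKM (SD, n = 3). The β-arrestins Arrb1 and Arrb2 had 14.3 ± 2.17 and 42.1 ± 4.25, and Arrb2 was the higher in each rat. The receptor kinases Adrbk1 (GRK2), Grk5 and Grk6 had 53.6, 38.6 and 30.9 FPKM on average.

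Of the endothelin pathway, the ligand Edn1 had 22.6, 26.3 and 18.4 FPKM, its converting enzyme Ece1 had 97.2, 100 and 82.2, and the receptors Ednra and Ednrb had 38.4 ± 7.71 and 25.5 ± 2.45 FPKM (SD, n = 3). Edn3 was low at 1.97 FPKM. In the nitric oxide pathway, the endothelial synthase Nos3 had 12.8, 14.6 and 12.8 FPKM, and Cav1, the caveolar protein that binds it, 335 ± 49.8. The subunits of soluble guanylate cyclase, Gucy1a3 and Gucy1b3, had 28.1 ± 7.33 and 25.1 ± 2.4 FPKM. Pde5a, which breaks down cyclic GMP, had 7.89 ± 0.255. Arg1, which competes for arginine, varied, at 40, 23.8 and 13.8 FPKM.

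Prostacyclin synthase, Ptgis, had 51.1, 65.5 and 122 FPKM and was highest in Veh_963, while its receptor Ptgir had 4.72 ± 0.687 (SD, n = 3). Thromboxane synthase, Tbxas1, had 22.5 ± 1.88, and the inducible cyclooxygenase Ptgs2 had 0.925 against 36.6 for the constitutive Ptgs1. In the BMP pathway, mutations of which underlie heritable pulmonary arterial hypertension, the co-receptor Eng had 292, 361 and 240 FPKM, the receptors Acvrl1 and Bmpr2 had 117 ± 27.4 and 16.8 ± 3.89, and the targets Id1 and Id3 had 247 ± 42.2 and 183 ± 29.4. Bmp4, at 58.9 ± 7.5, and Bmp6, at 45.9 ± 6.2, were the most abundant ligands measured, and Gdf2, which the liver supplies, had 12, 14 and 0 reads. Of the serotonin pathway, the transporter Slc6a4 had 9.37, 14.1 and 11.1 FPKM, the enzyme Tph1 had 4.45, 6.89 and 2.41, and the receptor Htr2b had 2.57 ± 0.479.

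**Figure D3:**
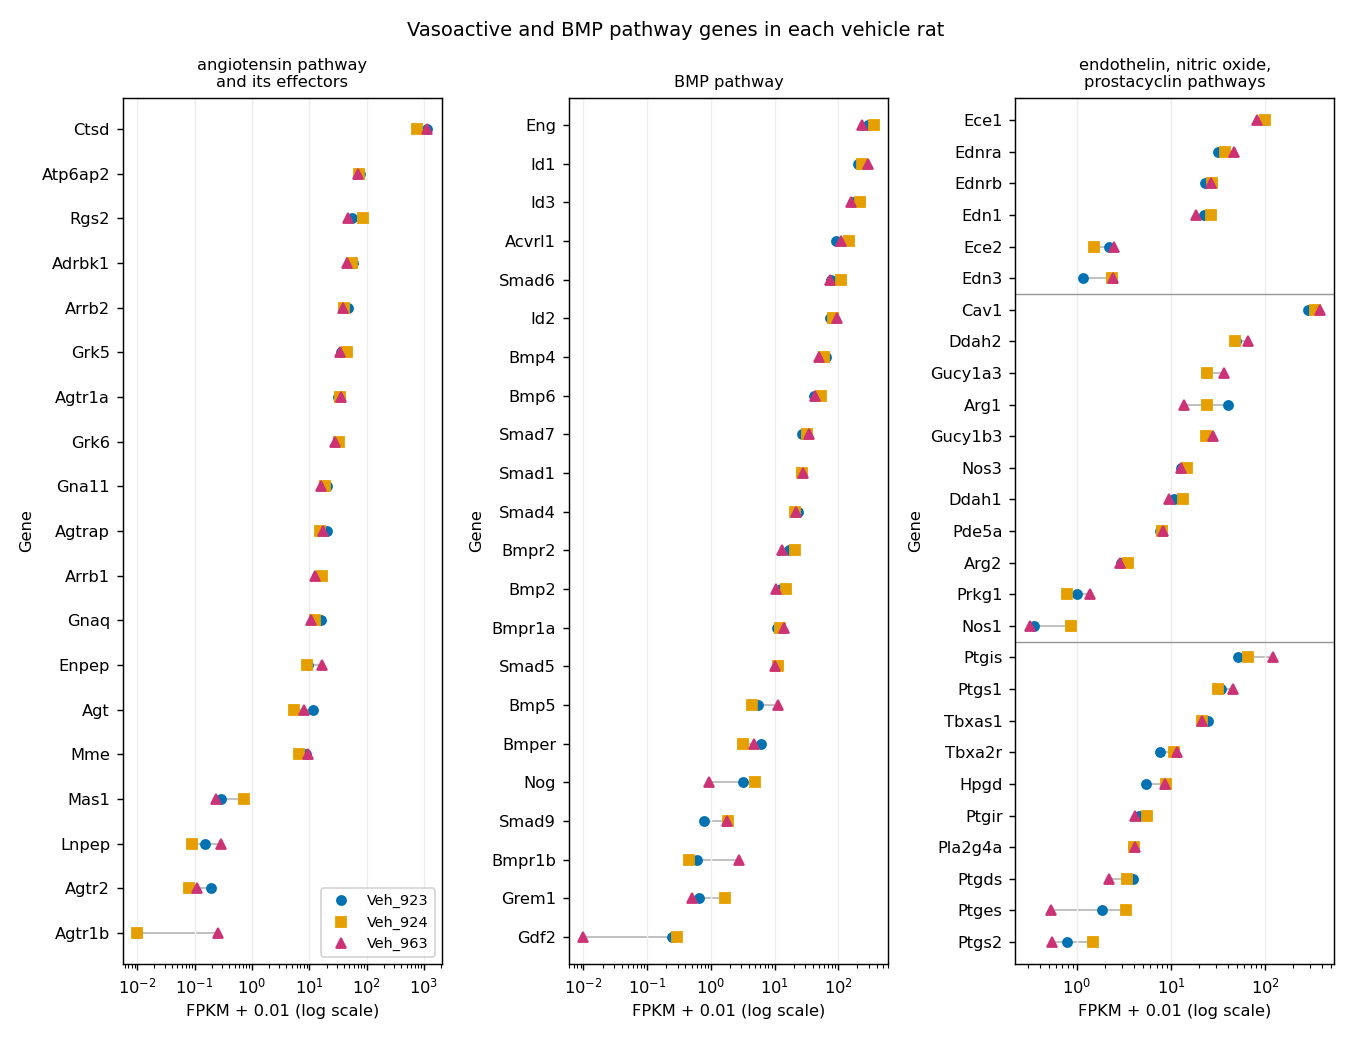
FPKM plus 0.01 (log axis) of genes of the angiotensin, BMP, endothelin, nitric oxide and prostacyclin pathways, with 1 symbol per rat and grey lines from the lowest to the highest rat. Agtr1a lay between 31.1 and 35.1 FPKM, and Agtr2 and Agtr1b lay below 1 FPKM in each rat.

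The spread between the rats was measured gene by gene. A gene was taken as variable where its highest library was at least 2-fold its lowest, which 1495 of 12944 genes (11.5%) were. Without Veh_963, the number was 495; without Veh_924 it was 807. The common biological coefficient of variation was 0.2514, and 0.1947 without Veh_963. Among genes of 1000 to 10000 reads the median CV of FPKM between rats was 10.3%, where counting alone gives 2.31%. Of all 12944 genes, 2.16% were variable with Veh_923 highest, 2.74% with Veh_924 highest and 6.65% with Veh_963 highest, and 3.36, 5.23 and 2.96% with these rats lowest.

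Smooth muscle contractile genes were highest in Veh_963. All 12 members measured were highest there, where 37.8% of all genes were. Of the 12, 10 spread at least 2-fold, against 11.5% of all genes. Tagln (transgelin) had 388, 561 and 1273 FPKM, Myh11 (smooth muscle myosin heavy chain) 49, 70 and 228, and Cnn1 (calponin) 55.3, 82.3 and 294. Actg2, the actin of visceral smooth muscle, had 109, 160 and 562 FPKM. Between Veh_923 and Veh_924 alone, 0 of the 12 differed 2-fold, against 3.82% of all genes. The sarcomeric actin Actc1 followed the same order and varied 14.49-fold, while Myh6 and Nppa had no read in any rat. The matrix genes Dcn (decorin) and Inmt, a methyltransferase counted in the fibroblast list, had 37.2, 38.8 and 214 FPKM and 9.81, 18.4 and 217 FPKM. Myh11 and Dcn were chosen after their values were seen. Col3a1, at 1091, 1092 and 1066 FPKM, did not share that order. Of 15 fibroblast genes 6 spread at least 2-fold, 5 with Veh_963 highest and 1 with Veh_924 highest. Without Veh_963, 0 of the 15 did so, against 3.82% of all genes. Of 21 collagen genes 4 (19%) spread at least 2-fold, against 11.5% of all genes. These 4 were highest in Veh_963, and the median of the list was 58.8, 57.9 and 105 FPKM. The summed level of the cardiac list was 37.9, 56.8 and 308.8 FPKM, of which Actc1 alone gave 19.9, 31.1 and 283. Of the 4 cardiac genes with at least 50 reads, 3 were highest in Veh_963 and 1 in Veh_924. The part of this list in these differences was not tested.

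Airway genes were also highest in Veh_963. All 8 measured club and secretory genes and all 15 ciliated genes were highest there, where 37.8% of all genes were. At least 2-fold spread was seen in 6 of the 8 and in 9 of the 15, against 11.5% of all genes. Scgb3a1, a secretoglobin of the larger airways, had 5.45, 6.74 and 74.6 FPKM. Cyp2f4, a cytochrome P450 of club cells, had 6.91, 3.53 and 54.5, and Cyp2a3, a cytochrome of the respiratory epithelium and the gene of largest spread among those of 5 FPKM or more that are not named by a clone or locus number, had 16, 2 and 1314 reads. The cilium gene Dynlrb2 had 30.1, 22.7 and 73.5 FPKM. Of 19 xenobiotic genes, all were highest in Veh_963 and 10 spread at least 2-fold, among them the flavin monooxygenase Fmo2 (46.9, 51.4 and 125 FPKM), chosen after its values were seen. Without Veh_963, 2 of 8 club and secretory genes, 0 of 15 ciliated genes and 2 of 19 xenobiotic genes spread at least 2-fold, against 3.82% of all genes. In the club and xenobiotic lists, some of the spread therefore lay between Veh_923 and Veh_924. Part of the xenobiotic list is made in club cells, and Cyp2b1 and Cyp2f4 are in both lists. The part of airway and muscle content of the tissue piece in these differences was not tested.

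Genes that respond to glucocorticoids were higher in Veh_963 too. All 10 were highest there, where 37.8% of all genes were, and 7 spread at least 2-fold, against 11.5% of all genes. Tsc22d3 (GILZ) had 87.8, 56.7 and 265 FPKM, Fkbp5, a co-chaperone of the receptor, 36.7, 21.4 and 57.2, and Errfi1 17.8, 13.9 and 81.1. The receptor itself, Nr3c1, had 23.3, 28.9 and 28.5. Errfi1, Nr3c1 and the clock output Dbp were chosen after their values were seen. Of 13 clock genes, 6 spread at least 2-fold, all of them highest in Veh_963: the clock gene Per1, which is also in the glucocorticoid list, had 28.1, 13.4 and 57 FPKM, and Dbp 6.24, 6.77 and 15. Arntl, the activator of the clock, had 12.7, 12.3 and 12.7 FPKM. All 9 measured B cell genes were highest in Veh_963 as well, and 6 spread at least 2-fold. Of the 9, 4 were lowest in Veh_923 and 5 in Veh_924, and of the 10 glucocorticoid genes 3 and 7. Of all genes, 29.7% were lowest in Veh_923 and 33.1% in Veh_924. Igkc, the kappa light chain constant gene, had 1391, 776 and 3759 FPKM. Without Veh_963, 2 of 10 glucocorticoid genes and 1 of 9 B cell genes spread at least 2-fold, against 3.82% of all genes.

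Most mesothelial genes were lowest in Veh_963. Of 8 mesothelial genes measured 6 were lowest there, where 37.2% of all genes were. Msln (mesothelin) had 34.2, 21.6 and 11.1 FPKM and Upk3b 13.6, 9.65 and 1.68. Of the 8, 5 spread at least 2-fold, against 11.5% of all genes. Without Veh_963, 0 of the 8 did so, against 3.82% of all genes. Ccl7, a monocyte chemokine named by its spread, had 47.7, 77.9 and 3.27 FPKM. The following were chosen after their values were seen: Ccl2, a further monocyte chemokine, had 84, 127 and 18.6 FPKM, the cytokine Il6 had 6.38, 17.3 and 1.95, and Ptx3, a soluble pattern receptor, had 53.5, 83.7 and 6.91. In these 4 genes Veh_924 was highest and Veh_963 lowest. They belong to no list and are given as single genes.

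Blood and surfactant genes varied along other orders. All 9 measured erythroid genes were highest in Veh_924, where 32.5% of all genes were, and lowest in Veh_923. Of them 8 spread at least 2-fold, against 11.5% of all genes. Hba1, an alpha globin, had 2285, 8550 and 3517 FPKM, Hbb (beta globin) 300, 1370 and 654, and Alas2, the erythroid enzyme that starts heme synthesis, 9.78, 82.1 and 31.3. Without Veh_924, 4 of the 9 spread at least 2-fold, against 6.25% of all genes. The globin models Hba1 and Hba2 are near-identical copies, so the split of reads between them is uncertain. All 12 alveolar type 2 markers were highest in Veh_923, where 29.7% of all genes were highest, and 11 of 12 were lowest in Veh_924, where 33.1% were lowest. Of them 5 spread at least 2-fold, and without Veh_924, between Veh_923 and Veh_963, 1 did: Muc1 (165, 65.3 and 70.6 FPKM), named for that reason after its values were seen. Without Veh_923, 2 did, against 8.16% of all genes. Of 11 measured neutrophil genes 8 were highest in Veh_924, and 7 of the 11 spread at least 2-fold, 5 of them with Veh_924 highest. S100a8, which forms a calcium-binding dimer with S100a9, had 44.4, 93.5 and 39.5 FPKM. Lcn2 was the only 1 of the 11 that was highest in Veh_923.

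**Figure D4:**
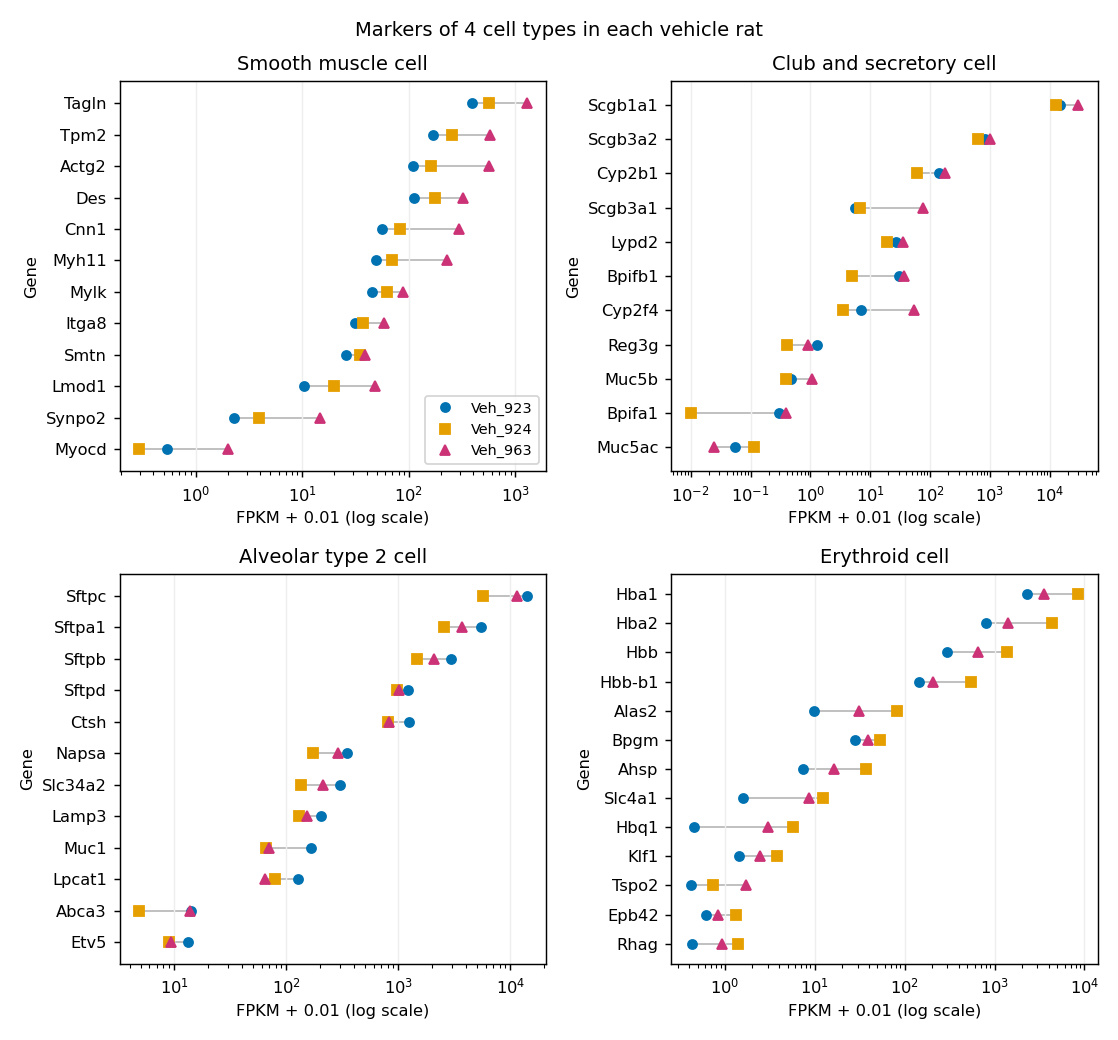
FPKM plus 0.01 (log axis) of the listed smooth muscle, club and secretory, alveolar type 2 and erythroid markers, with 1 symbol per rat and a grey line from the lowest to the highest. Veh_963 was highest for all 12 smooth muscle genes, Veh_923 for all 12 alveolar type 2 genes and Veh_924 for 9 of 9 erythroid genes with at least 50 reads.

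Several lists held a smaller share of variable genes than the 11.5% of all genes. That share depended on depth. It was 35.4% for genes with a mean of 50 to 100 reads, 11.2% at 100 to 1000 and 4.32% at 1000 to 10000. Many endothelial and type 1 alveolar genes had over 1000 reads. The lists were not set against genes of like depth, so a low count does not mark a list as unusually even. Of the general endothelial genes 0 of 15 spread 2-fold, of type 1 alveolar genes 0 of 12, of the nuclear respiratory chain 0 of 47, of proteasome genes 0 of 30 and of TGF-beta pathway genes 0 of 15. For the angiotensin list it was 1 of 16, for the BMP list 1 of 17 and for the endothelin list 0 of 5. Macrophage genes, with 2 of 18 (11.1%), and nitric oxide genes, with 1 of 9 (11.1%), were near the share of all genes. In the serotonin list 1 of 6 did so, in the prostacyclin list 2 of 8 and among potassium and calcium channels of vascular muscle 3 of 12, which is 16.7, 25 and 25%.

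Other lists held a larger share. Of 6 platelet and megakaryocyte genes 3 (50%) spread at least 2-fold, all highest in Veh_924. Of 4 adipocyte genes 3 (75%) and of 3 chondrocyte genes 2 (66.7%) did so, all highest in Veh_963. In each of the lists that follow, the variable genes were not all highest in the same rat. Of 15 genes of surfactant lipid and sterol synthesis 7 (46.7%) spread at least 2-fold, 4 with Veh_924 highest, 2 with Veh_963 and 1 with Veh_923. Insig1, which restrains sterol synthesis, had 66.1, 82.9 and 30 FPKM, and Fasn, fatty acid synthase, 67.3, 32.3 and 59.5. Of 15 matrix remodelling genes 6 (40%) did so, 5 of them with Veh_963 lowest. Ctgf, a matrix-associated growth factor, was highest in Veh_963 at 241, 367 and 556 FPKM, whereas Timp1, an inhibitor of metalloproteinases, was lowest there at 375, 345 and 169. Of 15 complement genes 5 (33.3%) did so, 4 of them with Veh_923 highest. Of 25 DNA replication genes 5 (20%) did so, 4 of them with Veh_923 highest and all 5 with Veh_963 lowest. Tk1, the thymidine kinase of dividing cells, had 18.6, 19.8 and 9.33 FPKM.

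Ordered shifts below 2-fold were also present. Of 15 endothelial genes 14 were highest in Veh_924, where 32.5% of all genes were. Of 72 ribosomal protein genes 61 were highest in Veh_963, where 37.8% of all genes were.

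**Figure D5:**
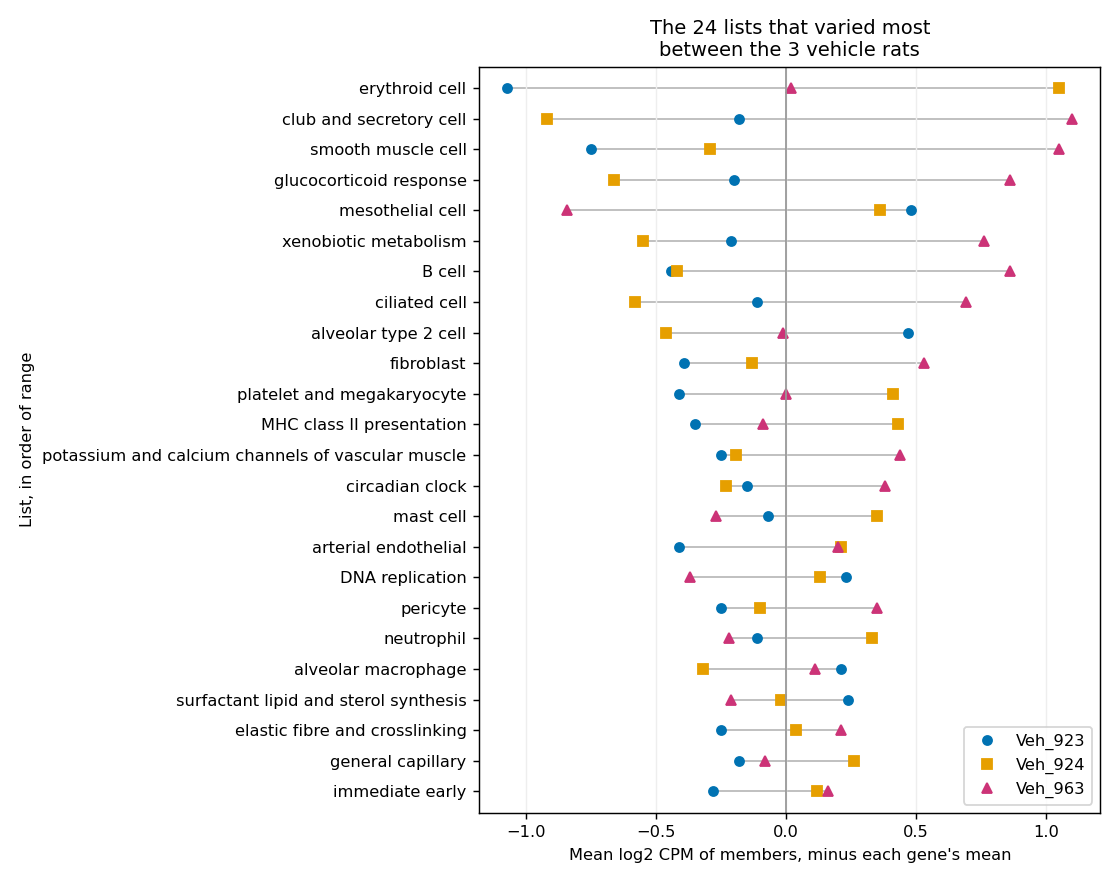
The 24 lists, of those with at least 5 genes measured, whose level varied most between rats. The x axis is the mean over the members of log2 CPM minus the mean of that gene over the 3 rats, and each symbol is 1 rat. Smooth muscle genes lay at -0.75, -0.29 and 1.05 in Veh_923, Veh_924 and Veh_963, and erythroid genes at -1.07, 1.05 and 0.02.

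Some of the genes with the largest spread were models without a shared direction among their relatives. RT1-DMb, a chain of the peptide loader of MHC class II, had 25, 1471 and 35 reads in the 3 rats, while Cd74 and RT1-Da varied 1.25 and 1.24-fold. Rpl35a, a ribosomal protein gene, had 97, 73 and 1 reads. Sepw1, a selenoprotein, had 160, 8.46 and 4.59 FPKM, and Fam50a had 6.77, 0.198 and 16.5. Aurkb, a mitotic kinase, had 67.6, 12.2 and 116 FPKM, whereas Cdk1 and Prc1 of the same list varied 1.24 and 1.03-fold. Among the 50 genes with the largest spread at 5 FPKM or more, 28 were named by a clone or locus number. How reads of overlapping or duplicated models were assigned was not stated, and its part in these values was not tested.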

How the data were processed

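Lung RNA of 3 vehicle-treated MCT rats was sequenced as 3 libraries. The sequencing provider aligned the reads to the rat genome. Neither the aligner and counter nor the build and strand setting were stated in the labels or methods. The deposited tables hold read counts per gene and FPKM values, both made by the authors, for each library beside those of a drug group. The vehicle values were equal in the 3 full tables, which were pooled by gene ID. A table leaves out genes without a read in its drug group, and the FPKM values imply that 535 to 879 reads per library fell in genes listed in none. FPKM equalled the count divided by the deposited gene length and total within 1% for most genes; for 11 to 11.2% of genes over 100 reads another length had been used. Columns of the authors' fold changes and p-values were not used.

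The counts were scaled by TMM in edgeR 4.0.16 (R 4.3.3) and turned into log2 CPM with a prior count of 2. Spread was taken for genes with a mean of at least 50 reads, as the highest minus the lowest library. The dispersion was estimated with an intercept only, and DESeq2 1.42.0 served as an alternative. The script was tested on simulated data. Gene lists (35 cell types and 33 processes, 977 of 1007 members listed) were written by hand. The vehicle rats and the lists were chosen with earlier results of these data known. Named were the 30 genes of highest mean FPKM, the 5 highest members and low defining markers of each list, members of the vasoactive and BMP lists, and the 15 genes of largest spread at 5 FPKM or more without clone, LOC or RGD names; all others are said to be chosen after their values were seen. A symbol shared by several models was taken as the model with most reads. Sequences came from RefSeq (GRCr8). Some members of the lists are not reported here. Each rat is a separate animal by its label. Alternatives were another scaling, filter, prior count, threshold and unit, and each rat left out.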

Additional observations from a re-analysis of the deposited data

How the results depend on the processing

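The number of genes at 1 FPKM or more stayed within 1.5 times of 13921 under each alternative, with 13793 to 13924 when each rat was left out. The mitochondrial share was 10.04% as a share of summed FPKM against 6.575% of reads, and 6.087 to 7.036% with each rat left out. The number of genes holding 50% was 328 by summed FPKM against 757 by reads, and 751 to 756 with each rat left out. Genes with a 2-fold spread numbered 2748 at a mean of at least 10 reads, 671 at 200 reads and 4857 with no filter, against 1495, since the filter changes how many genes are measured; the number was 495 (without Veh_963) to 1056 (without Veh_923) with each rat left out, which takes the maximum of fewer libraries. The common coefficient of variation was 0.1841 from DESeq2, as the square root of the median dispersion, against 0.2514, and 0.1947 (without Veh_963) to 0.2813 with each rat left out. The level of a list moved by less than the SD between rats in 61 of 68 lists with absent members taken as 0 and in 67 of 68 with logs averaged. With a rat left out it did so in 194 of 204 cases. Leaving out 1 of 3 values moves their mean by less than their SD in any case, so this last count says little about stability. TPM rescales every gene upward and moved 56 of 68. No paired analysis was possible because 1 group was described. With 3 rats no level has a narrow error, and genes below 50 reads were not read for spread.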
